A study of Mus musculus with 3 samples.

Results

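The locus described here is a partial assembled copy of Rn45s, the mouse gene of the 45S ribosomal RNA precursor, on chromosome 17 of mm9. Its members were taken by position, as every region that overlapped chr17:39979000-39986000 by at least 1 bp in the lists deposited for PAM ChIRP-seq, and they numbered 4 of 2457 regions. There were 2 members among the 2112 regions of the odd pool and 2 among the 345 regions of the even pool. The locus itself was chosen by its high scores in both lists, so the scores and ranks below are a description with no test.

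In ChIRP-seq, biotinylated antisense oligonucleotides capture an RNA together with the chromatin fixed to it, and the recovered DNA is sequenced. PAM, a noncoding RNA transcribed from a super-enhancer, was captured from ASCs, the satellite cells of hindlimb muscle after sorting and culture. The mice carried Tg:Pax7-nGFP, a nuclear GFP reporter driven by Pax7, and no drug or other treatment was given. The age and number of the animals were not given in the sources used here. Cells for both pools were fixed in 1% glutaraldehyde for 10 min, and the pools differed in the probes, of which 100 pmol were hybridized for 4 h at 37 °C. Each pool was 1 library with no replicate. An input library of the same cells was not analysed here. The lists hold no expression values, so the cell type could not be checked against its markers. They hold no read counts either, so the depth behind each region is unknown.

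Ribosomal RNA genes lie in long tandem arrays on several chromosomes and are transcribed by RNA polymerase I in the nucleolus. The precursor carries, in order, a 5′ external spacer, the 18S rRNA of the small ribosomal subunit, and then a short rRNA and the 28S rRNA of the large subunit, separated by internal spacers that are cut away. The repeats are nearly identical and genome assemblies hold few of them, so DNA or RNA from any repeat and from the assembled copy cannot be told apart in these lists.

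All 4 members lay inside the 18S rRNA sequence, and they formed 2 stretches covered by both pools. The 18S was found on the plus strand at chr17:39983298-39985146, a length of 1849 bases, from the letters CTGGTTGAT near its start and GGATCATTA at its end. Each of these motifs matched once on the plus strand of the 7001-base window and had 0 matches on the minus strand. In the regions of both lists, searched on both strands, the first was present in 0.163% and the second in 0.0407%. RefSeq (GRCm38.p6) lists an 18S related sequence, Rn18s-rs5, on chromosome 17 with the same length of 1849 bases. The window holds the 18S with GC-rich sequence on both sides, and no match to the short rRNA that follows the 18S in the precursor, so it was not shown to hold the whole unit. The stretches are shown in mm9, plus strand, because they carry the regions with the highest scores of the locus in both pools. Capitals mark bases in at least 1 run of 31 bases (31-mer) that lies wholly inside the stretch and is found more than once in mm9. They number 74 bases in stretch 1 at chr17:39983453-39983699 and 135 bases in stretch 2 at chr17:39984614-39984825. Runs that cross an edge of a stretch were not marked, so lower case near an edge does not show a single copy.
Stretch 1: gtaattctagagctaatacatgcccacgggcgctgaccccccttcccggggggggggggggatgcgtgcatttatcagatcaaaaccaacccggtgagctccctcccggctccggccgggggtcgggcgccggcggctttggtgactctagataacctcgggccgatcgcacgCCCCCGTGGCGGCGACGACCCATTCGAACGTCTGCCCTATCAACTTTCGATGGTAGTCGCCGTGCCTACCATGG
Stretch 2: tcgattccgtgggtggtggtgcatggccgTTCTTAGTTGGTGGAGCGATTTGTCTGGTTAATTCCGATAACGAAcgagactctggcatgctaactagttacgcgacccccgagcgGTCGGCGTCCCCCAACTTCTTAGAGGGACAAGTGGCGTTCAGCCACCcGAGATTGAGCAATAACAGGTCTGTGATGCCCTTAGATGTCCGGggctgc

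In the odd pool, region 1 at chr17:39983446-39983699 had a score of 47 and region 2 at chr17:39984614-39984867 had a score of 63. In the even pool, region 1 at chr17:39983453-39983700 had a score of 34 and region 2 at chr17:39984578-39984825 had a score of 68. The score is the authors' value for a region, a whole number of at least 4, and its meaning was not given in the sources used here. Region 2 was therefore above region 1 in both lists. The lists have medians of 6 in the odd pool and 5 in the even pool, and whether their scores share a scale is unknown, so the pools are compared by rank.

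Even region 2 ranked 1 of 345, and even region 1 ranked 3. Odd region 2 ranked 6 of 2112, with 1 other region tied at its score, and odd region 1 ranked 17. Of the odd list, 99.7% of regions scored below region 2 and 99.2% below region 1, and the corresponding shares of the even list were 99.7% and 99.1%. The plot of scores by order places all 4 members in the steep upper end of each list. The 2 members made up 0.0947% of the odd regions (95% Wilson interval from 0.0260% to 0.345%) and held 0.668% of the summed score. In the even list they were 0.580% of the regions (95% Wilson interval from 0.159% to 2.09%) and held 4.37% of the summed score. These intervals treat the regions as independent draws, although each list is complete and the locus was chosen by its scores. They measure no spread between libraries.

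**Figure D1:**
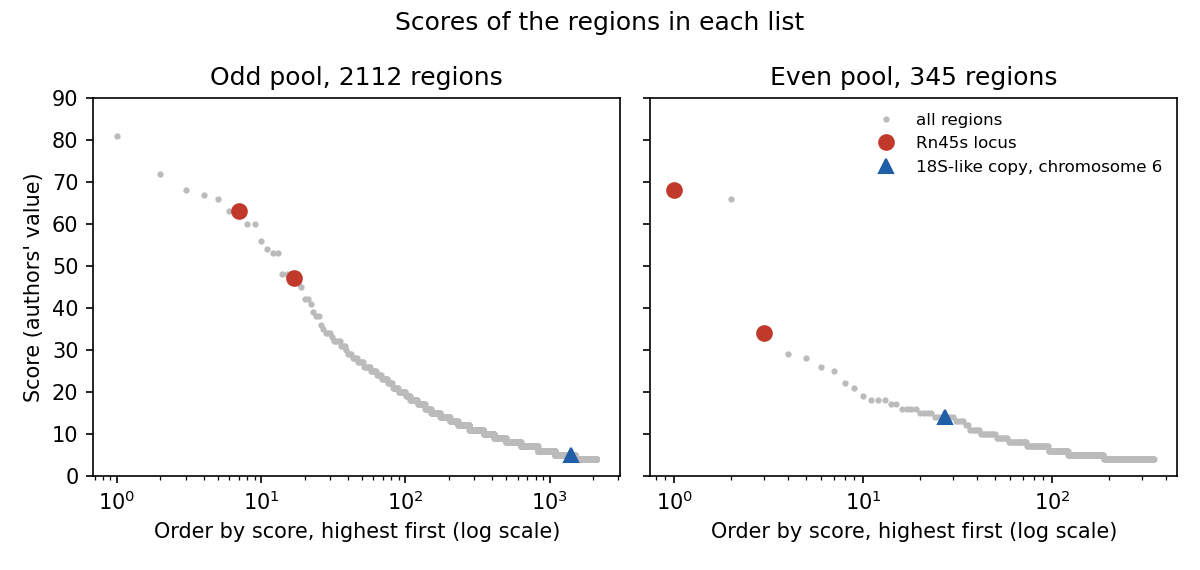
Score of every region (authors' value, vertical axis) against its order in the list, highest first (log scale), for the odd pool (left, 2112 regions) and the even pool (right, 345 regions). Red points are the regions of the Rn45s locus, with scores of 63 and 47 in the odd pool and 68 and 34 in the even pool, and blue triangles are the regions of an 18S-like copy on chromosome 6, with scores of 5 and 14.

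Counted from the first base of the 18S, region 1 spanned bases 149 to 402 in the odd pool and 156 to 403 in the even pool. Region 2 spanned bases 1317 to 1570 in the odd pool and 1281 to 1528 in the even pool. The pools thus placed region 1 almost at the same bases, with midpoints 4 bp apart, whereas the midpoints of region 2 were 39 bp apart. Regions 1 and 2 were separated by 914 bp in the odd pool and 877 bp in the even pool. Within the window, whose bases were counted from its left edge, the odd regions spanned 4447 to 4700 and 5615 to 5868, and the even regions 4454 to 4701 and 5579 to 5826. The odd regions covered 27.5% of the 18S and the even regions 26.8%.

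The sequence on both sides of the 18S held no region of either list, as the map of the locus shows. Before the 18S, 3300 bases had a GC content of 69.1%, and 98.7% of their 31-mers were found once in mm9. After it, 600 bases had a GC content of 71.3%, and 100% of their 31-mers were found once. These GC-rich flanks are the runs of 100-base steps next to the 18S with at least 55% GC. In the 18S itself, 55.9% of the 31-mers were found once, and none was found more than 4 times.

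**Figure D2:**
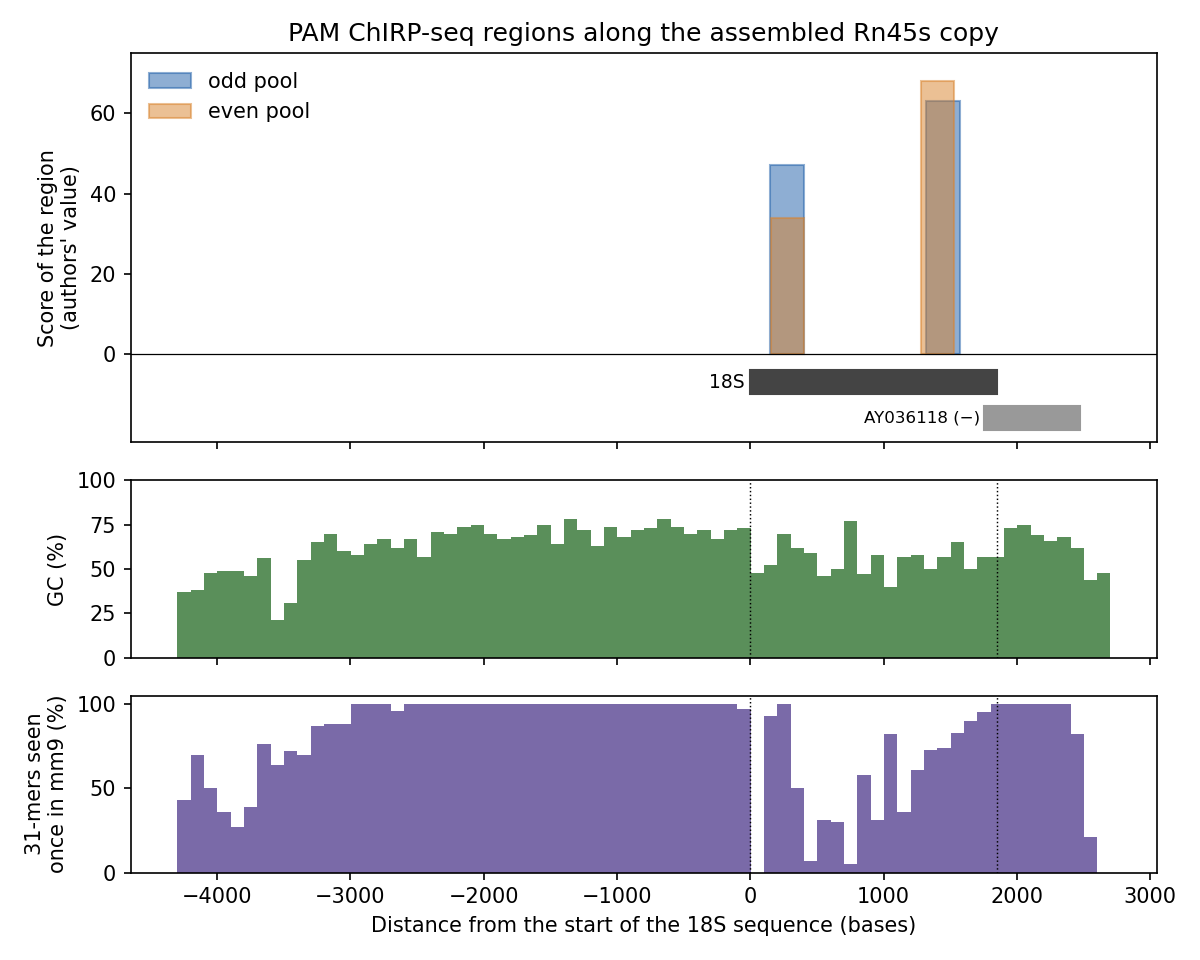
Top, score of each region (authors' value) along the window, in bases from the start of the 18S, with the odd pool in blue and the even pool in orange, above the positions of the 18S and of the pseudogene AY036118 on the minus strand. Middle and bottom, GC content (%) and share of 31-mers found once in mm9 (%) in steps of 100 bases; the 4 regions stand inside the 18S and the flanks hold none.

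Sequence copy number varied along the 18S. In stretch 1, 79.7% of the 31-mers were found once, and in stretch 2 this share was 77.5%. It was 38.6% in the 914 bases between the stretches and 12.8% in the 155 bases before stretch 1. The last 321 bases of the 18S, after stretch 2, had the highest share, 91.1%, and odd region 2 reached into them up to base 1570. With runs of 50 bases the shares were 87.4% in stretch 1, 100% in stretch 2, 54.9% between the stretches and 99.3% in the last 321 bases. Runs of 25 bases gave lower shares, 77.6% in stretch 1, 62.8% in stretch 2 and 31.7% between the stretches. At that length the share was 81.8% in the last 321 bases and 48.7% over the whole 18S. Both stretches therefore lay on 18S sequence that is mostly single-copy in the assembly, as are the end of the 18S and the flanks, where no stretch was covered by both pools. Whether mapping shaped the position of the regions was not tested.

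The 31-mers of each member had a median of 1 occurrence in mm9, as had those of 83.3% of the odd regions and 80.3% of the even regions. The share of single-copy 31-mers was 80.4% in odd region 1, 79.0% in odd region 2, 79.4% in even region 1 and 65.6% in even region 2. The members were rich in G and C for their lists, whose median GC content was 49.6% in the odd pool and 48.0% in the even pool. Region 1 had a GC content of 63.8% in the odd pool and 64.1% in the even pool, where 6 of 345 regions were higher. Region 2, the higher in score, had 57.1% in the odd pool and 54.4% in the even pool. How GC content relates to score over the lists was not tested, so nothing is read from the order of regions 1 and 2.

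GENCODE M1, the annotation used for mm9, holds no gene at any of the members. Its only entry in the window is AY036118, a pseudogene of 725 bases on the minus strand at chr17:39985048-39985772, which overlaps the last 99 bases of the 18S. Odd region 2 ended 180 bases before this pseudogene and even region 2 ended 222 bases before it. Outside the window the nearest annotated genes were AC168268.1, 382 kb to the left, and AC188608.1, 203 kb to the right. The nearest other region of both lists on the left was at Tubb5, a tubulin gene 4.01 Mb away, with a score of 31 in the odd pool and 10 in the even pool. On the right the nearest other region was 5.72 Mb away in the odd pool and 5.50 Mb away in the even pool. Chromosome 17 held 89 odd regions and 14 even regions in all. The usual spacing of regions along it was not measured, so these distances do not set the locus apart.

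Each member overlapped a region of the other pool, against 6.96% of all odd regions and 42.6% of all even regions. The locus was selected on scores of the same lists, so nothing is read from this count. Stretch 1 was 247 bp long, which is 97.2% of the odd region and 99.6% of the even region, and stretch 2 was 212 bp long, or 83.5% and 85.5%. Over the 147 shared loci the overlap had a median of 204 bp and ranged from 5 to 248 bp, and 87.8% of shared loci had a shorter overlap than stretch 1. The pools' midpoints had a median offset of 47 bp over the shared loci, so stretch 1, with 4 bp, was among the closely matched loci and stretch 2, with 39 bp, was near the median. In 3 shared loci the score was at least 30 in both lists, a limit set after the values were seen, and 2 of them were the stretches of the 18S. The other was Gm10800 on chromosome 2, with scores of 67 and 66, where the median 31-mer was found 3 times in mm9.

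**Figure D3:**
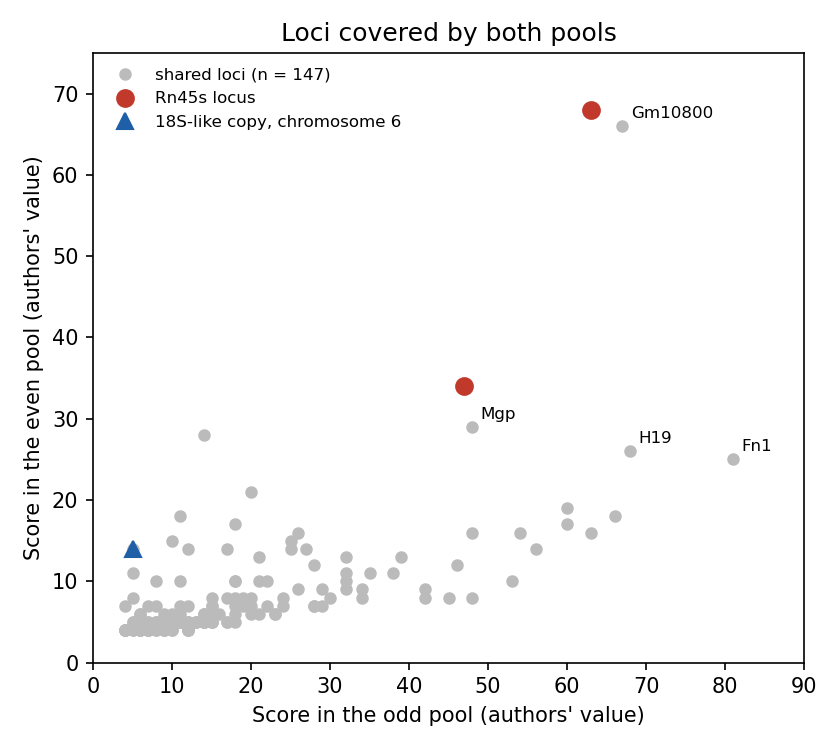
Score in the even pool (vertical axis) against score in the odd pool (horizontal axis), both authors' values, for the 147 loci covered by both pools. The stretches of the Rn45s locus (red) and Gm10800 are the loci with a score of at least 30 in both lists, and the 18S-like copy on chromosome 6 (blue triangle) has 5 and 14.

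The 3 regions next above and next below each member were named by their genes. Just above odd region 1, at a score of 48, were Spp1 (osteopontin), Mgp (matrix Gla protein) and Lrrc58, which shares the position with Gm15725, and just below it were Col3a1 (a fibrillar collagen chain) with 46 and 42 and Des (desmin, the muscle intermediate filament) with 45. Odd region 2 was tied with a region of Fn1 (fibronectin) at 63 and followed Actb (beta-actin, 66), Gm10800 (67) and H19, an imprinted noncoding RNA (68). Just below it were further regions of Actb and H19, both with 60, and Tmsb4x (thymosin beta, an actin-binding peptide) with 56. In the even list Gm10800, with 66, stood between the members, and Mgp with 29, a chromosome 11 region without a gene with 28 and H19 with 26 came next. Likeness of pattern was measured as the distance between the percentiles of the score in both lists, in percentile points. The stretches were 0.749 points from each other, and the other 145 shared loci were ranked by their distance to each. For stretch 1 the nearest of these was Mgp at 0.294 points, followed by Gm10800 at 0.680, H19 at 1.09, Fn1 at 1.38 and a further H19 locus at 2.06. For stretch 2 the order of these loci began with Gm10800 at 0.323, then Mgp at 0.968 and H19 at 1.46. Fn1 had scores of 81 and 25 and H19 of 68 and 26, so they ranked above both 18S members of the odd list and below both of the even list.

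Other copies of the 18S in the genome were searched with megablast at an identity of at least 90%. The search gave 7 matches, between 139 and 908 bases long and 91.6% to 100% identical, which together covered 76.4% of the 18S. Each match is an alignment, and those on chromosome X adjoin each other, so a match need not be a separate copy. The longest match was at chr6:3150770-3151677, with 98.0% identity over 908 bases and no annotated gene. It matched bases 329 to 1235 of the 18S, most of the sequence between the stretches, and it was the only one of the 7 matches with a region, 1 in each pool. The copy on chromosome 1, 96.7% identical over 338 bases, spanned all 212 bases of stretch 2 and had 0 regions in either list. A copy of the first 139 bases on chromosome 16, in Gnb1l, was 100% identical and had 0 regions as well. Per the study's methods only reads with 1 unique place in mm9 were kept, so nothing is read from the 0 at this identical copy. A looser search, down to 80% identity and 50 aligned bases, gave 25 matches, again with 1 region in each pool.

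**Figure D4:**
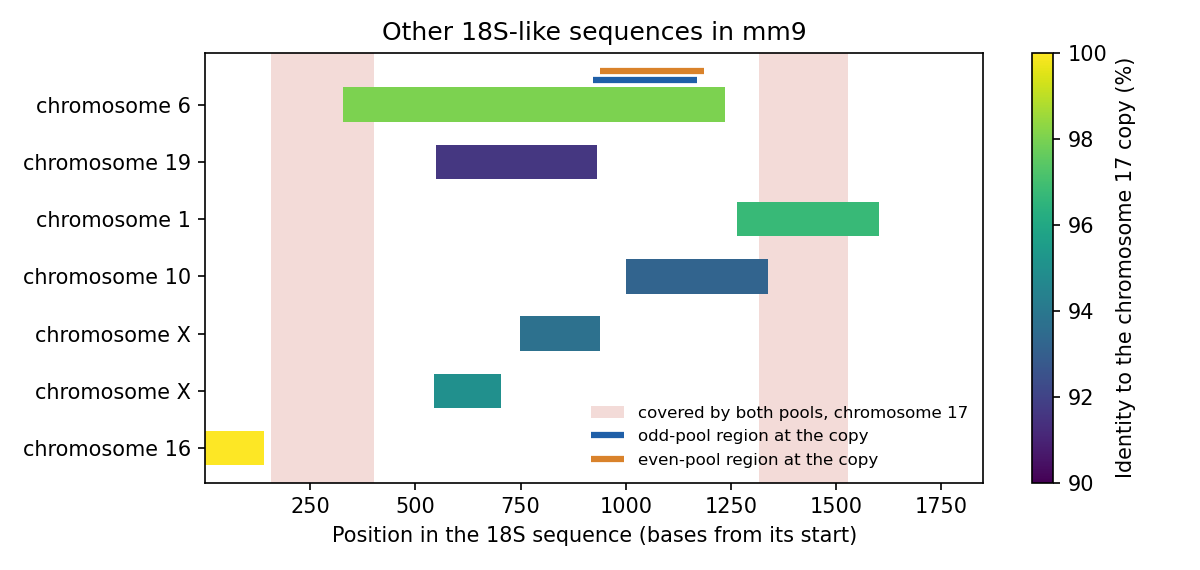
The 7 other matches to the 18S in mm9, each drawn as a bar at the bases of the 18S it matches (horizontal axis) and coloured by its identity to the chromosome 17 sequence (%). Pink bands mark the stretches covered by both pools on chromosome 17, and the lines above the chromosome 6 bar are the odd-pool (blue) and even-pool (orange) regions there, which match bases outside both bands.

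The regions of the chromosome 6 copy again overlapped each other, but their ranks in the lists were far apart. The odd region, at chr6:3151363-3151616, had a score of 5, with 29.0% of the odd list below it. The even region, at chr6:3151380-3151627, had a score of 14 and ranked 24 of 345, with 91.3% of the even list below it. On chromosome 17 the members were above 99.2% or more of the odd list and above 99.1% or more of the even list, so the difference in rank between the loci was wider in the odd pool. With 1 library per pool this difference has no replicate check. The sequence covered by both pools at this copy, chr6:3151380-3151616 in mm9 on the plus strand, is shown to compare it with the 18S of chromosome 17. It matches bases 939 to 1175, which lie between the stretches, at 227 of 237 bases, or 95.8%, and capitals mark the 10 bases that differ.
Chromosome 6 copy: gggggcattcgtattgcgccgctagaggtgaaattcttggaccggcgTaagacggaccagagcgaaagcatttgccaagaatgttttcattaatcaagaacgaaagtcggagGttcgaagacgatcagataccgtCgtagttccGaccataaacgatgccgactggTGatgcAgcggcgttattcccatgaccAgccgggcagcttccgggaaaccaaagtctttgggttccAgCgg

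At this copy, 65.2% of the 31-mers in the odd region and 72.0% of those in the even region were found once in mm9. The 18S-like sequence as a whole thus held 3 regions of each list and 3 of the 147 shared loci, or 2.04%. No other region of either list matched the 18S, and the same held when the search used the whole window, a choice made after seeing the data. The annotated genes of the short large-subunit rRNA, 143 and 148 bases long, had 0 matches in the window and overlapped 0 regions. The 28S rRNA could not be searched, as its sequence was not among the references used here.

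The 6 oligonucleotides of 20 bases that the study lists for PAM were set against the members on both strands. Which pool each belongs to was not given in the sources used here, so all were used for both. They are printed in the orientation of the study's list.
PAM 1: gccagaaagaatggatgact
PAM 2: gcattttcagtgggatcaca
PAM 3: acctgccatctgctatcaaa
PAM 4: tcttcacaaaccctcatgat
PAM 5: acaagtacttcagctccatg
PAM 6: gttctgatatgtaagctcct

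The best ungapped match reached 12 of 20 bases in each of the 4 members. In region 1 it came from PAM 6 at bases 217 to 236 of the 18S, and in region 2 from PAM 2 at bases 1501 to 1520. The median over all regions was 12 in both lists, with maxima of 16 in the odd list and 15 in the even list. A match at least as good was found in 91.8% of all odd regions and 93.6% of all even regions, so the members were not set apart by their likeness to these sequences. The longest exact run was 7 bases in odd region 1, 6 in odd region 2, 7 in even region 1 and 8 in even region 2, against list medians of 7 and 8. Over the whole 18S the best match was 13 of 20, from PAM 1, PAM 2 and PAM 5. A match in letters is a description and was not a test of binding.

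Other structural RNAs of the cell were looked up in the same lists. The 332 annotated rRNA genes, mostly 5S and related sequences, overlapped 0 regions in both pools, as did 2 mitochondrial rRNA genes, 22 mitochondrial tRNA genes, 1423 snRNA genes, 1552 snoRNA genes and 487 genes of the class misc_RNA. The study kept only reads with 1 unique place in mm9. How many of these genes such reads can reach was not measured, so nothing is read from the 0 counts. Among 10 named abundant noncoding RNAs, 3 were in the annotation, and all 3 had regions in the odd pool and none in the even pool. Of all 14930 annotated genes that are not protein-coding, 1.23% overlapped a region of the odd pool and 0.208% one of the even pool, whose list is shorter, so the absence from the even pool is not read as a difference between pools. Malat1, a nuclear speckle RNA, and Xist, the RNA of X inactivation, had a score of 13 each, and Neat1, the scaffold of paraspeckles, had regions of 11 and 10. None of these regions was shared between the pools.

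Genes that make or process ribosomal RNA were a further list, of which 39 of 40 names were in the annotation. In the odd pool 5 of the 39 genes overlapped a region, and in the even pool 0 did. The odd regions in them numbered 7, or 0.331% of all odd regions. Of all 22371 protein-coding genes, 6.45% overlapped a region of the odd pool and 0.997% one of the even pool. At the rate of all genes, few or no regions of a list of this size would be found in the shorter even list. The genes were listed with earlier results of these data known, so the odd count is not read as a difference from all genes. Ddx5, an RNA helicase with roles in splicing and ribosome biogenesis, had regions with scores of 12 and 10, and its paralog Ddx17 had 9. Ncl, the nucleolar protein nucleolin, had 8, and Myc, a transcription factor that raises ribosome production, had 4, the lowest score in the list. The regions of 18 and 15 inside Baz2a, a subunit of the nucleolar remodelling complex, lay on exons of Atp5b, an ATP synthase gene that overlaps it, and not on its own exons. No region of these genes reached the score of either odd member of the 18S, 47 and 63, but 99.2% of all odd regions also scored below 47. The locus was chosen by its scores, so nothing is read from this difference.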

How the data were processed

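PAM ChIRP-seq regions of ASCs were analysed for the odd and the even pool, 1 library each. Per the study's methods, reads with 1 unique place in mm9 (Bowtie2) went to MACS2 for peak calling (versions not given in the sources used here), and the authors deposited for each pool regions of fixed width with a score. The starts were read as 0-based and are printed 1-based. The locus, the gene lists and the named regions were chosen with earlier results of these data known. Named regions were the members, the 3 regions next above and below each, the 5 shared loci with the nearest percentiles, other regions matching the 18S, and list genes with a region. Lists were intersected (at least 1 bp). Every 31-mer of mm9 was counted, copies were searched with BLAST 2.17.0, and genes came from GENCODE M1. Overlap, ranking and k-mer counts were tested on simulated data. No test was run, since each pool has 1 library. Python 3.11.15, NumPy 2.4.6, SciPy 1.17.1, numba 0.67.0, pysam 0.24.0 and matplotlib 3.10.9 were used. Alternatives were other windows, overlaps, filters, run lengths and searches.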

Additional observations from a re-analysis of the deposited data

How the results depend on the processing

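The number of members, the shared stretches, the copy number, the GC content and the regions of the chromosome 6 copy kept their values or moved within the set limits under the alternatives run, including the search with the whole window, which was chosen after seeing the data. Among shared loci alone, 95.9% scored below the highest odd member, against 99.7% in the full list. The list of shared loci is smaller, with 147 entries. When probe likeness was taken as the longest exact run, the share of regions matching at least as well was 88.8% for odd region 1, 98.8% for odd region 2 and 57.4% for even region 2. No paired analysis was possible because a pool is a single library. Depth is unknown, so a missing region in the flanks or copies means only that none was listed. The input library was not analysed here.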
